A study of Mus musculus with 4 samples.

Results

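Intragenic open sites away from gene ends are described here, as found by ATAC-seq, which marks open chromatin by where the Tn5 transposase inserts its adapters, in haematopoietic stem cells (HSCs). They are the peak summits, the single bases of highest signal, that lay inside the body of a protein-coding gene and more than 1000 bp from both ends of every protein-coding gene on chromosomes 1 to 19 and X. They were taken from the list of CD93-negative HSC replicate 1, where 1241 of the 7977 summits on these chromosomes met the rule. The whole series held 11476 summits on any chromosome. The study had 4 libraries of sorted bone marrow HSCs from untreated wild type C57BL/6 male mice, 8 weeks old, with 2 libraries for each state of CD93, a transmembrane receptor of the C-type lectin family. Cells of both states passed the LSK gate for stem and progenitor cells (no lineage markers, with Sca-1 and Kit), were Slam1+ and lacked CD34, Flt3 and CD48. Bones were pooled for flushing. The labels do not tie libraries to separate mice, so the spread within a group may be technical.

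In general, open chromatin inside genes falls at promoters of shorter transcripts, at enhancers within introns and at sites bound by architectural proteins. Many genes of the mouse have several annotated transcription starts, and the outer bounds of a gene model are set by its longest transcripts. A gene's start can therefore lie well inside its bounds. A RefSeq table of start sites was used to find such internal starts. It gives starts for part of the genes and none on chromosome 18.

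Of the 1241 sites, 1011 had a host with a start in that table. Among these, 527 (52.1%, exact 95% interval 49.0 to 55.2) lay within 250 bp of a start of their own host, 17 (1.68%) lay at a start of a long non-coding RNA gene and 467 (46.2%) lay at no listed start. The other 230 sites were not assessed. Hosts with a site at a start of their own, or of another host of that site, made up 3.5% of the 15213 genes with a listed start that could hold a site. Hosts with a site at no start made up 2.82%. By the outer bounds of the genes every site lay away from gene ends, while more than 50% of the assessed sites stood at an annotated start inside those bounds. By the same measure, 45.9% of the 1205 intragenic sites on chromosomes the table covers had a start of any gene within 250 bp, against 77.8% of gene-end summits (those within 1000 bp of an end of a protein-coding gene) and 12.5% of intergenic summits. Intervals cover counting error only and take sites as independent.

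The starts with a summit are best seen in their sequence. The 4 windows below belong to the highest-scoring sites that were found in 3 of the 4 lists and whose summit lay in a start window of the host itself. Each is the RefSeq window on GRCm38.p6, the assembly behind mm10, from 250 bases before the start to 50 after it, written 5′ to 3′ on the strand of the gene. Capitals mark matches to the GC box GGGCGG, the CCAAT box CCAAT, the AP-1 motif TGACTCA or another of the 9 motifs searched, on either strand.
Por, chr5:135688895-135689194, plus strand: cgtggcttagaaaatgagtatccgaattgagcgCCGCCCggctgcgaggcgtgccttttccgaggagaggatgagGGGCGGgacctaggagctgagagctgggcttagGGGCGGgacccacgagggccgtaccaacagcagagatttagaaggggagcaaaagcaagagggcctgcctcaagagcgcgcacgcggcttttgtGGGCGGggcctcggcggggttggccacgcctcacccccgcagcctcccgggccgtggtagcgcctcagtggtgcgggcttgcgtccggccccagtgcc
Tsga10, chr1:37865033-37865332, minus strand: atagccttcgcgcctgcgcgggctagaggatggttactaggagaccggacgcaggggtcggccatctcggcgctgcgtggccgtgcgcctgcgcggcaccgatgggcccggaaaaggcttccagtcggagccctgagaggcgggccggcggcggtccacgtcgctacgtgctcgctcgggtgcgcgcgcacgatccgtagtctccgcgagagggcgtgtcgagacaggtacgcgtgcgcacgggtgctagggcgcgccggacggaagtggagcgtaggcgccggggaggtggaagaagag
Stag1, chr9:100643198-100643497, plus strand: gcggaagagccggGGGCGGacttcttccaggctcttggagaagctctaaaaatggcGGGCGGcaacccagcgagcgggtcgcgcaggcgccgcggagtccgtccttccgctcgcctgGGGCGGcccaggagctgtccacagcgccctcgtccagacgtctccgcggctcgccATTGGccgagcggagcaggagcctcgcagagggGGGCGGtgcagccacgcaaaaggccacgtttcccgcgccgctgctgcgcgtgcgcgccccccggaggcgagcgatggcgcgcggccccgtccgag
Osbpl2, chr2:180119056-180119355, plus strand: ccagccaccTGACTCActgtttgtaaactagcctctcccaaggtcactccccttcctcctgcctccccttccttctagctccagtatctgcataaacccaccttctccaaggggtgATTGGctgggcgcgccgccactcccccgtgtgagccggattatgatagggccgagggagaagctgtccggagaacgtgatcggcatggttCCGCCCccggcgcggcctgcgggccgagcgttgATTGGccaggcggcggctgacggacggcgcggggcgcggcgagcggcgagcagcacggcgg

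Por encodes cytochrome P450 oxidoreductase, and its summit fell on base 177 of the window, 74 bp before the start at base 251. A start of the non-coding gene Gm40345 lay nearer to this summit, at 20 bp. The Por window held 4 GC boxes and was 67.3% G or C. Stag1 encodes a subunit of cohesin, the ring complex that holds chromatin loops. The Stag1 summit fell on base 266, 15 bp past its start, in a window with 4 GC boxes and 1 CCAAT box at 73.7% G or C. Osbpl2 encodes an oxysterol-binding protein, and its window held 1 AP-1 match, 1 GC box and 2 CCAAT boxes, with the summit on base 205. The Tsga10 window held no match to any of the 9 motifs, although it was 71.0% G or C with an observed-to-expected CpG ratio of 1.26.

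Over all internal protein-coding start windows, the 472 that held an intragenic summit had a median of 65.7% G or C and a CpG ratio of 0.835. The 3393 internal windows without a summit had 53.0% and 0.345. A GC box stood in 76.5% of the windows with a summit, in 33.1% of those without and in 35.9% of all 32619 windows in the table. For the ETS core CCGGAAG these shares were 21.6%, 4.75% and 8.92%. The other motifs searched were the CRE core TGACGT, the NRF1 core GCATGCG, the E-box CACGTG, the RUNX motif TGTGGTT and the GATA motif AGATAAG. The RUNX motif stood in 1.06% of windows with a summit and 5.51% without, the GATA motif in 0.847% and 3.21%, and AP-1 in 3.18% and 5.63%. The CCAAT box stood in 43.6% and 33.4%, and the CRE core in 14.0% and 5.48%. For the NRF1 core the shares were 8.05% and 2.39%, and for the E-box 11.2% and 5.63%. Whether any of these motif shares differ beyond the difference in G or C was not tested. Windows at gene ends that held a summit had 64.0% G or C, a GC box in 78.3%, the ETS core in 26.4%, the RUNX motif in 3.29% and the GATA motif in 1.07%. These are descriptions of letters and name no bound factor, and matches of different motifs can overlap.

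Summits at an internal start sat slightly before it. The median offset of the 527 sites was -24 bp, with 325 (61.7%) upstream and 388 (73.6%) within 100 bp. For 4509 gene-end summits at a protein-coding start the median was -31 bp with 65.9% upstream. The part of the gene interiors within 250 bp of a listed start made up 0.324% of their 954.7 Mb and held 553 of the 1205 sites, or 178.9 per Mb, against 0.685 per Mb in the rest. Of 3881 internal starts of protein-coding genes, 589 (15.2%) had a summit within 250 bp, against 5388 of 17164 (31.4%) starts at gene ends. The share of sites at a start fell with distance from the nearest gene end, from 70.6% of 248 assessed sites at 1 to 2 kb to 27.9% of 68 sites beyond 50 kb.

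**Figure D1:**
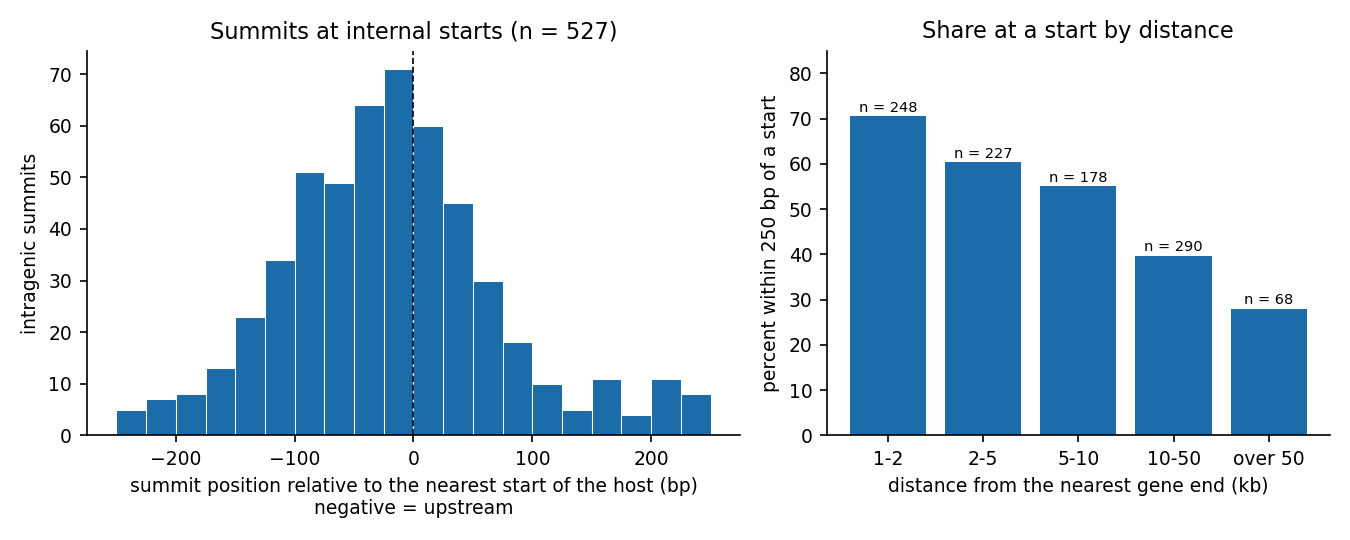
Left, histogram of the distance in bp from each of the 527 intragenic summits at a start of its host to that start, negative being upstream. Right, percent of assessed intragenic summits within 250 bp of a start, by distance from the nearest gene end in kb. The histogram peaks just before the start, and the share falls from 70.6% to 27.9%.

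Scores, taken as the authors' −log10 of a p or q value, ran from 3.03 to 350.6 among the sites, with a median of 15.1. Gene-end summits of the same list had a median of 23.0 and intergenic ones of 12.8. Sites at a start of the host had a median score of 19.1, sites at a non-coding start 17.5 and sites at no start 12.2. Scores of different libraries are not scaled to each other and are given side by side only.

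The highest-scoring site lay in Chl1, which encodes a neural cell adhesion molecule, at chr6:103649200, 138616 bp from the start of the gene and 62.3% along it. Its score was 350.6 in CD93-negative replicate 1 and 196.0 in CD93-positive replicate 2, and it had no summit within 250 bp in the other 2 lists. The next lay where Cmss1 and Filip1l overlap, at chr16:57391505, with scores of 203.5, 39.4 in CD93-negative replicate 2 and 118.5 in CD93-positive replicate 2. Zc3h7a, which encodes a zinc finger protein, held a site at chr16:11144109 with 176.1, 39.7 and 60.6 in the same order. Cdk8, the kinase of the Mediator complex, held one at chr5:146261139 with 119.9, 30.3 and 76.7. These 4 sites had no listed start within 250 bp, and the nearest start of any gene was between 9577 and 100157 bp away.

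Of the next 11 sites by score, 6 stood at a start of their host. Jund, an AP-1 transcription factor gene of 2878 bp, held one 1101 bp from its start with a score of 119.1. Por scored 105.1, Cnnm2 98.9, Tsga10 98.0, Pkd1 97.0, Stag1 94.1 and Osbpl2 92.8, each within 107 bp of a start of its host. Pkd1 encodes polycystin-1, and its site lay 1240 bp inside the gene bounds and 21 bp from an internal start. Stard13 held a site with a score of 86.2 that lay 9 bp from a start of the non-coding gene 1700028E10Rik. Angptl6, with 85.2, had its nearest start at 1348 bp. Chd2 (104.0), which encodes a chromatin remodeller, and Prdm2 (95.4) had no start in the table and were not assessed.

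The 1241 sites lay in 1161 host genes, 6.07% of the 19142 protein-coding genes long enough to hold one. The same share was 1.7% in CD93-negative replicate 2, 0.407% in CD93-positive replicate 2 and 0.0104% in CD93-positive replicate 1. Hosts were long, with a median of 46172 bp against 20411 bp for genes without a site. The share of genes with a site rose from 1.64% in the lowest of 5 equal groups by interior length to 11.8% in the highest, over genes with a listed start. There were 17 sites inside 2 overlapping genes.

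Several sites in one gene were found in 81 hosts, 0.423% of eligible genes, which together held 176 sites. There were 67 hosts with 2 sites, 12 with 3 and 2 with 4. Their median length was 96310 bp, and in 6 of the 81 all sites lay within 1000 bp of each other. Of these hosts, 34 had a site at a start of their own or of an overlapping protein-coding host of that site, and 29 had no site at any start.

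Tex14, which encodes a protein of germ cell intercellular bridges, held 4 sites between 17932 and 43345 bp from its start, with scores of 16.3, 11.8, 39.1 and 27.6 in that order along the gene. None lay at a listed start, and none was found in another list. Nt5c2, which encodes a cytosolic nucleotidase, also held 4, with scores of 7.19, 12.8, 10.4 and 18.5. The last of these, 52776 bp in, stood at a start of Nt5c2 and was the only one found in CD93-negative replicate 2, with a score of 8.17 there. Mnt, a MAX-binding repressor gene of 14920 bp, held 3 sites with scores of 38.7, 20.3 and 22.2. The inner 2 of them were found in CD93-negative replicate 2 with 11.3 and 7.51.

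Ccnd3 encodes cyclin D3, and it held 2 sites in its first 16687 bp, scored 36.7 and 7.23, and 1 at an internal start 88375 bp in, scored 33.0. Arid1b, which encodes a subunit of the BAF chromatin remodelling complex, held 3 sites with scores of 30.4, 8.97 and 7.94, all in the later part of the gene. Nfia, a nuclear factor I gene of 540811 bp, held 3 with 10.4, 20.8 and 15.6, the last at 97.3% of its length. Cdkl4 held 3, scored 9.83, 27.8 and 5.63, the highest of which stood at a start. Btbd9 held 3 with scores from 5.15 to 33.5, Tbc1d2 3 from 5.41 to 17.1, and Gfod1 3 from 6.58 to 16.8. Among the 14 hosts with 3 or 4 sites, Nt5c2 and Mnt had sites found in another list and the other hosts had none. Counted by site and not by host, 76.0% of all sites were in no other list.

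**Figure D2:**
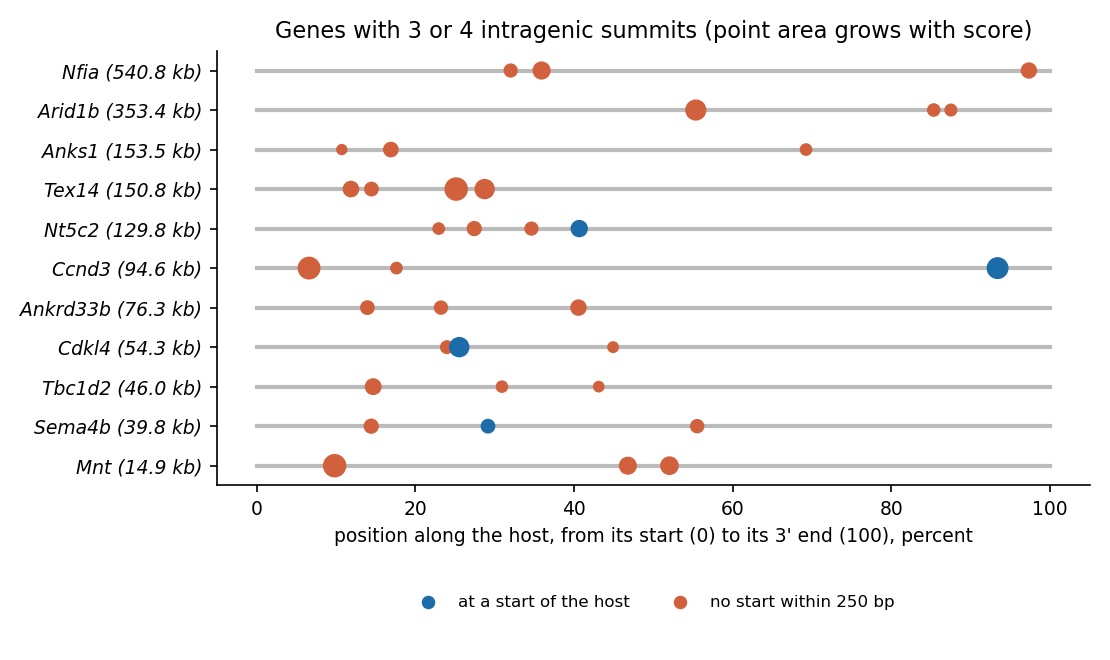
Intragenic summits along the 11 hosts of 3 or 4 sites whose strand is known, as percent of the gene from its start to its 3′ end. Point area grows with the score in CD93-negative replicate 1, and colour shows whether a listed start of the host lay within 250 bp. Sites at no start make up most of the points, and those of Tex14 all lie in the first 28.7% of the gene.

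The sites leaned towards the start of the gene. Among 996 sites in 1 host of known strand, 272 (27.3%) lay in the first of 10 equal parts of the host and 769 (77.2%) in the first 5 parts. Sites at a start of the host lay a median of 4181 bp from the outer start, 15.7% along the gene. Sites at no start lay a median of 15144 bp in, 37.0% along, and 65.6% of them were in the first 5 parts. At the rule's limit of 1000 bp, the sites just inside were those in Zfp335 at 1001 bp from a gene end (score 12.4), Bahd1 at 1003 bp (39.7), Krba1 at 1006 bp (4.73), Eif4a1 at 1008 bp (27.4) and Topors at 1011 bp (6.25). Just outside it lay summits at Notch4 and Lsm12, both at 999 bp (27.6 and 25.1), A630001G21Rik at 992 bp (5.27), Atg2a at 977 bp (9.89) and Ercc5 at 976 bp (8.20).

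**Figure D3:**
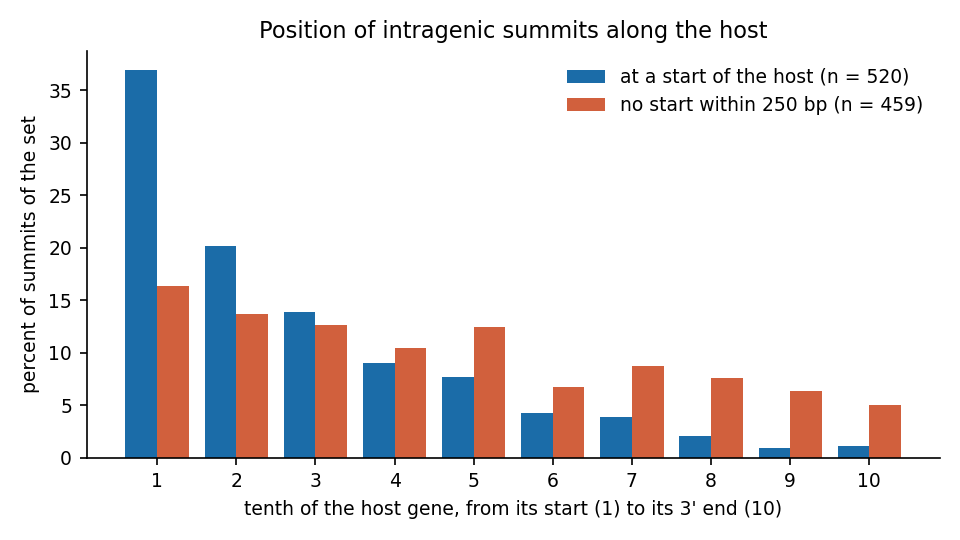
Percent of intragenic summits in each of 10 equal parts of the host gene, from its start to its 3′ end, for 520 sites at a start of the host and 459 at no listed start. Sites at a start are most frequent in the first part with 36.9%, while sites at no start are spread further, with 16.3% there and 5.01% in the last.

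The hosts' own ends were then examined. Of the 1241 sites, 300 (24.2%) had a host with a summit within 1000 bp of either end. Among host genes the share was 23.4%, against 36.4% of 17981 eligible genes without a site and 35.6% of all eligible genes. It was 16.3% for sites at a start of the host and 32.5% for sites at no start. Counted at the outermost start alone, the shares were 14.6% and 31.5%, against 36.0% of the 15213 eligible genes with a listed start. The 3′ end of the host had a summit for 1.90% and 1.50% of these sites, near the 1.66% of the same eligible genes. In the other lists, 21 of 325 intragenic summits of CD93-negative replicate 2 (6.46%, with 14.3% of all eligible genes having an end summit in that list) and 0 of 77 in CD93-positive replicate 2 (which allows up to 3.90%, with 3.59% of all eligible genes) had one. These shares describe 1 list each and were not tested.

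Recurrence was counted as a summit within 250 bp in another list. In CD93-negative replicate 2, 289 of the 1241 sites recurred (23.3%, interval 21.0 to 25.7), against 32% of all summits of the list. In CD93-positive replicate 2, 74 recurred (5.96%, interval 4.71 to 7.43), against 8.59%. In CD93-positive replicate 1, whose list held 18 summits on these chromosomes, 0 of 1241 recurred, which allows up to 0.242%, against 0.1%. There were 943 sites in no other list, 224 shared with CD93-negative replicate 2 alone, 9 with CD93-positive replicate 2 alone and 65 with both.

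Recurrence followed the score. All summits of the list were split into 5 equal groups by score. In the highest group, above 39.8, 78.6% of intragenic and 73.5% of gene-end summits recurred in CD93-negative replicate 2. In the lowest group the shares were 5.04% and 6.21%. In CD93-positive replicate 2 the highest group gave 36.6% and 31.6%, and the next 6.67% and 7.11%. Intervals of the 2 classes overlapped in each of these groups. Of the sites at a start, 31.1% recurred in CD93-negative replicate 2, against 16.1% of sites at no start, whose scores were lower. Within the highest score group these shares were 79.5% and 81.2%, and within the next 35.8% and 47.5%, with overlapping intervals. In the lower groups the order was that over all scores, with 28.7% and 13.9%, then 14.7% and 8.89%, then 7.55% and 4.26%. The intervals overlapped there too. In CD93-positive replicate 2 the shares over all scores were 6.25% at a start and 4.93% at no start. Their order was the opposite in the highest score group, with 30.7% and 46.9%, and in the next, with 3.33% and 17.5%, again with overlapping intervals. Sites at no start that recurred in these groups included the 7 shared sites with a score above 20 in CD93-positive replicate 2, described below. Most of the rest lay between 266 bp (Trim45) and 804 bp (Kat6b) from a start of their own host. Jund, Angptl6, Chd9 and Tiam1 had no listed start nearer than 1101 bp. Whether the order holds without these sites was not tested. In the reverse direction, 287 of 325 intragenic summits of CD93-negative replicate 2 (88.3%) and 73 of 77 of CD93-positive replicate 2 (94.8%) lay near a summit of CD93-negative replicate 1.

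**Figure D4:**
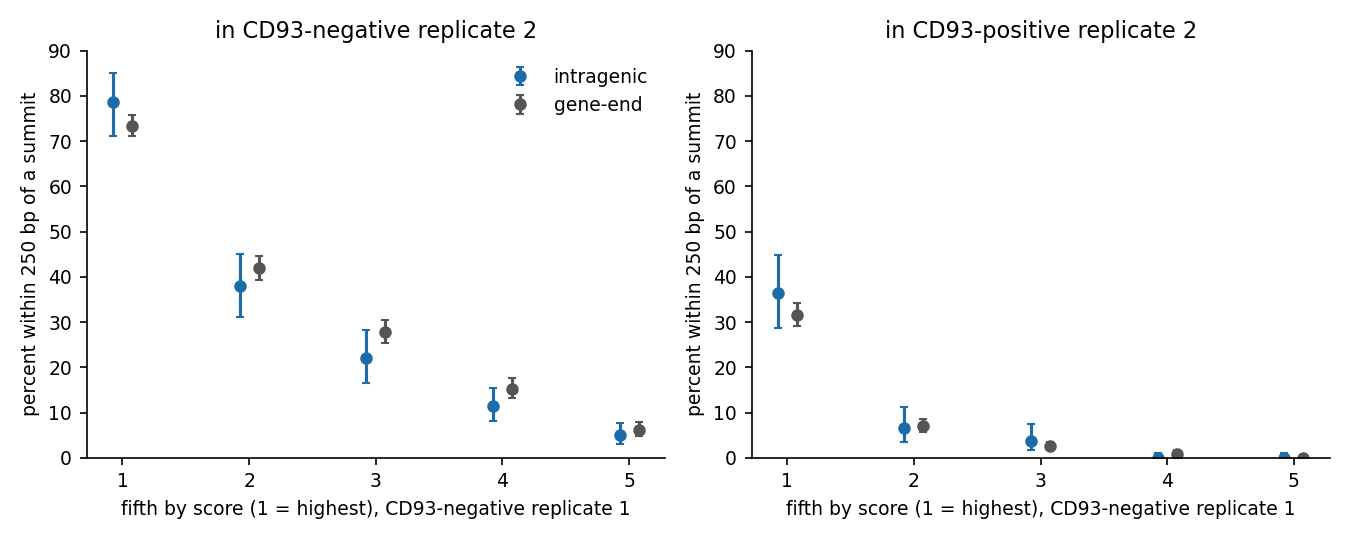
Percent of intragenic and gene-end summits of CD93-negative replicate 1 with a summit within 250 bp in CD93-negative replicate 2 (left) and CD93-positive replicate 2 (right), in 5 equal groups by score, 1 being the highest. Bars are exact 95% binomial intervals. Both classes fall together with the score, from 78.6% and 73.5% to 5.04% and 6.21% on the left.

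Among the 74 sites shared with CD93-positive replicate 2, 7 had a score above 20 there. They lay in Chl1, Cmss1 and Filip1l, Cdk8, Zc3h7a, Gphn, Camk1d and Jarid2. Gphn encodes gephyrin, a scaffold protein of inhibitory synapses, and scored 60.2 and 18.2 in the first and second CD93-negative lists and 34.4 in CD93-positive replicate 2. Camk1d, a calmodulin-dependent kinase gene, scored 36.0, 27.5 and 26.2. Jarid2, which encodes an accessory subunit of Polycomb repressive complex 2, scored 30.4, 5.43 and 23.5 at its site 138876 bp in. All 7 had no listed start within 250 bp, and their summits in the CD93-negative replicate 1 and CD93-positive replicate 2 lists lay 0 to 6 bp apart. The summits of the other 67 shared sites lay a median of 44 bp apart. The cut at 20 was chosen after the values were seen, and whether the 7 fall in regions prone to artefactual signal was not tested.

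**Figure D5:**
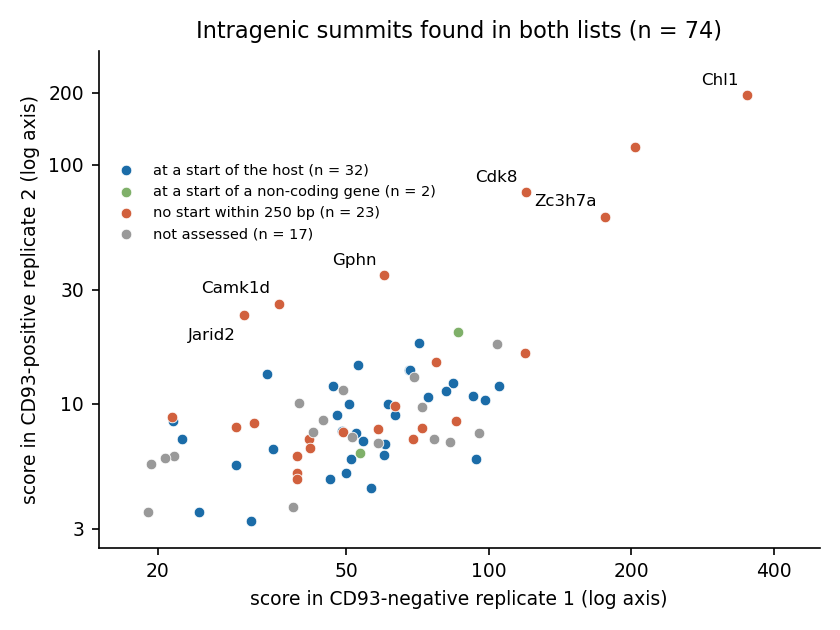
Score in CD93-negative replicate 1 against score in CD93-positive replicate 2, both on log axes and not scaled to each other, for the 74 intragenic summits found in both lists. Colour shows the start group. The 7 points above 20 on the vertical axis all have no listed start within 250 bp.

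Of the other 67 shared sites, 34 stood at a start, 16 at none and 17 were not assessed. Tob1, an antiproliferative BTG family gene, scored 71.3 and 31.5 in the first and second CD93-negative lists and 17.9 in CD93-positive replicate 2, 60 bp from an internal start. Stard13 scored 86.2, 22.8 and 19.9. Add3, which encodes a cytoskeletal adducin, scored 83.9, 20.7 and 12.2 at 154 bp from a start, and Bclaf1 scored 81.1, 8.85 and 11.3 at 52 bp. Actb, the beta-actin gene, scored 82.9, 14.2 and 6.91 and was not assessed for starts. Of the 4 intragenic summits in CD93-positive replicate 2 away from the CD93-negative replicate 1 list, the highest-scoring lay in Zfp708 with 6.44. The 2 intragenic summits of CD93-positive replicate 1 lay in Alcam and Agbl4, both with 3.36, and neither was near a summit of CD93-negative replicate 1.

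Across libraries, the number of intragenic summits in the CD93-positive libraries was 2 for replicate 1 and 77 for replicate 2. The CD93-negative libraries had 1241 and 325. The 2 groups did not overlap, with geometric means of 12.4 and 635.1 and a log2 ratio of -5.68 (exact permutation test over libraries, two-sided p = 0.333, the smallest that 2 against 2 allows). The lengths of the lists differed in the same direction, with 18, 701, 7977 and 2748 summits on these chromosomes, and the read depths are unknown. As a share of each list, intragenic summits made up 11.1% and 11.0% in the CD93-positive libraries (mean 11.0 ± 0.0897, SD, n = 2) and 15.6% and 11.8% in the CD93-negative ones (mean 13.7 ± 2.64, SD, n = 2). The difference was -2.64 percentage points (exact permutation test, two-sided p = 0.333). The 95% interval of the share in CD93-positive replicate 1 ran from 1.38% to 34.7%. With the CD93-negative lists reduced to as many top-scoring summits as CD93-positive replicate 2 held, their shares were 9.80% and 10.3%, and the difference became 0.977 points. CD93-positive replicate 1 still held 18 summits there.

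Among the gene lists, 7 of 30 HSC transcription factor genes (23.3%) hosted a site, beside 6.07% of all eligible genes. The median length of this list was 55195 bp, above that of eligible genes at 21398 bp. Runx1, a master regulator of blood formation, held a site with a score of 8.84 at 128749 bp from its outer start and 4 bp from an internal start. Stat5b, a cytokine signal transducer, held one with 9.22 at 35 bp from an internal start. Tal1 (6.15), Etv6 (8.04), Zfpm1 (12.9) and Cbfa2t3 (7.45) held sites at no listed start, and Spi1 (14.2), which encodes PU.1, was not assessed. None of the 7 sites was found in another list, as was the case for 76.0% of all 1241 sites, and their scores were below the median of all sites.

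Chromatin regulators hosted sites in 13 of 40 genes (32.5%), beside 6.07% of all eligible genes and 11.8% of the genes with the longest interiors. Their median length was 84976 bp. Hdac4, a class IIa histone deacetylase gene, scored 60.8 in CD93-negative replicate 1 and 23.8 in replicate 2 at 140 bp from a start. Kdm6a, an X-linked H3K27 demethylase gene, scored 52.8, 14.1 and 14.5 in these lists and CD93-positive replicate 2, and Kat6b scored 39.3, 10.7 and 4.86. Dnmt1, the maintenance DNA methyltransferase, scored 24.6 and 5.87 at 87 bp from a start. Kdm2b scored 33.2 at a start and was found in no other list.

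The following lists also stand beside 6.07% of all eligible genes, and their lengths differ. Adhesion and cytoskeleton genes, with a median length of 52982 bp, hosted sites in 10 of 34 (29.4%), among them Actb, Pxn (38.3), Cd47 (36.6, at a start) and Itgb2 (19.8). Cytokine receptor and signalling genes (median 51463 bp) did so in 4 of 34 (11.8%), among them Sos1 at 34.8, Inpp5d at 21.7 and Igf1r at 14.6. Quiescence and immediate-early genes (median 5881 bp) did so in 4 of 27 (14.8%), with Jund, Nr4a1 (34.7, at a start), Cdkn1a (20.1) and Fosb (5.52). Megakaryocyte and erythroid genes (median 17404 bp) did so in 6 of 23 (26.1%), with Mef2c at 21.5, Klf1 at 16.3, Epb41 at 13.7 and Zfpm1.

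In the remaining lists the shares were near the 6.07% of all eligible genes or rested on too few genes to tell from it. The lists described before are small as well, and none was tested. Myeloid genes (median 10629 bp) had 1 of 21 (4.76%), Fcgr3 with 14.5. Lymphoid genes (median 33866.5 bp) had 2 of 26 (7.69%), Ets1 with 26.2 and Ptprc with 11.2. Mature blood cell markers, with a median length of 8089 bp, had 0 of 27. Endothelial and stromal markers (median 41416.5 bp) had 0 of 22, and ubiquitous genes (median 11567 bp) 2 of 25 (8.00%), Actb and Ywhaz. The genes of the sort, Cd93, Cd34, Cd48, Flt3, Slamf1, Kit and Ly6a, had no intragenic site in any list. The site in Fcgr3 lay inside the hairpin of the microRNA gene Mir6546. The next nearest to a microRNA gene were the sites in Gse1, 174 bp from Mir7687 (score 12.5), Clcn4, 210 bp from Mir5620 (51.1), and Tlcd1, 240 bp from Mir7653 (12.4). The Clcn4 site was also found in CD93-negative replicate 2 (15.4) and CD93-positive replicate 2 (5.89).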

How the data were processed

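The deposited data were 1 list of 1-bp summits per library, each summit with a score. Bowtie2, MACS2 and the build mm10 are named in the submitters' processing notes. The version of either tool, any read filter or Tn5 shift and the peak threshold were not given in the sources used here. Scores, as deposited, were taken as −log10 of a p or q value, which of them was not stated, and depth is unknown because no reads were analysed. The replicate numbers in the summit names differ from the titles, which were followed.

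Gene bounds of protein-coding genes came from a RefSeq table of GRCm38.p6, which has no exons, UTRs or strand, so exons and introns were not told apart. Strand, internal starts and sequences came from the RefSeq start windows. That table lists 17492 of the 21887 protein-coding genes and none on chromosome 18, where 36 sites lay. Positions are 1-based. Python 3.11.15 with numpy 2.4.6, pandas 2.3.3, scipy 1.17.1 and matplotlib 3.10.9 was used. Summits were called shared within 250 bp. Shares have exact Clopper-Pearson 95% intervals, a count of 0 is given the limit that 3 counts would allow, and groups were compared by exact permutation over libraries. The functions for classes, hosts and sharing were tested on simulated summits. The sites and gene lists were chosen with earlier results of these data known. Named genes were the hosts of the 15 highest-scoring sites and of the 15 highest-scoring sites in 3 lists, the 10 hosts with most sites, the 4 highest-scoring hosts per gene list with every transcription factor, the 5 sites on each side of the 1000 bp limit, the sort genes and the 5 highest-scoring intragenic summits of each other list. Dnmt1, Camk1d, Jarid2, Zfp708, the microRNA genes with their hosts, and the comparison by internal starts were added after the data were seen. One gene that the rule names is not reported here. Alternatives were other distances, score minimums, merging, autosomes alone, CD93-negative lists cut to the length of CD93-positive replicate 2, a replicate block and each library left out in turn.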

Additional observations from a re-analysis of the deposited data

How the results depend on the processing

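Numbers and shares rest on 2 libraries a group, so no setting could pass a threshold. The log2 ratio of the numbers kept its direction in all 9 alternatives that gave a value. Leaving out each library gave -8.31 to -3.04, and the replicate block, a sign-flip over libraries of the same number, gave -5.68 (exact p = 0.5, the smallest it allows). Score minimums of 5 and 10 gave no ratio because CD93-positive replicate 1 then had no intragenic summit. The difference in share ranged from -4.51 to -0.779 points without each library and was -2.64 with the block. It reversed to 0.977 points when CD93-negative lists kept only as many of their highest scores as CD93-positive replicate 2 held. CD93-positive replicate 1 stayed at 18 summits there. The 11 other alternatives kept its direction, but for summits over 2500 bp from gene ends it was only -0.462 points. Score minimums of 5 and 10 gave -7.52 and -6.13 points, with no intragenic summit left in CD93-positive replicate 1.

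Recurrence in CD93-negative replicate 2 was 18.7% for sites over 2500 bp from gene ends, 30.5% at a score of at least 10, 17.8% within 100 bp, 31.1% for sites at a start and 16.1% for those at none. In CD93-positive replicate 2 it was 4.47%, 8.28% and 4.51% under the first 3 of these. Sites with a host-end summit made up 19.98% with a window of 500 bp, 18.9% at a score of at least 10 and 51.3% with a window of 2500 bp, which by construction also takes in sites that themselves lie between 1000 and 2500 bp from their host's end. Hosts with several sites fell to 39 at a score of at least 10. The share of sites at a start of any gene, 53.8%, was 40.1% within 100 bp, 58.5% within 500 bp, 62.3% within 1000 bp, 60.5% at a score of at least 10 and 47.4% for sites over 2500 bp from gene ends; these settings were chosen after seeing the data. The causes were not tested.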
